A study of Arabidopsis thaliana with 4 samples.

Results

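The double mutant hho2phr1 was set against the wild type Col-0 in Arabidopsis thaliana plants starved of phosphate. The comparison holds every gene whose FPKM, a fragment count corrected for transcript length and sequencing depth, reached 1 in either library, which was 20400 of the 33557 genes in the deposited table. The last gene inside that limit, AT5G46915, had 1.00037 FPKM in hho2phr1 and 0.910239 FPKM in Col-0. The first gene outside it, AT5G57520, had 0.999777 FPKM in hho2phr1 and 0.201657 FPKM in Col-0.

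The series held 4 libraries, 1 of each genotype: hho2phr1, the single mutants phr1 and hho2-1, and Col-0. Both single mutants are T-DNA insertion lines, and the double mutant carries both insertions. All 4 genotypes grew for 7 days on vertical agar plates of medium without phosphate, so the controls were starved too, and no phosphate-fed library was analysed here. The labels do not say which part of the plant was harvested or how many plants went into a library. Because each genotype is 1 library, no difference here has a replicate check, and the authors' 95% interval beside a value does not hold variation between plants.

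PHR1 is a MYB-related transcription factor that binds the P1BS element in promoters and switches on genes for taking up, recycling and sparing phosphate when plants are starved of it. SPX proteins hold PHR1 inactive when phosphate is plentiful, and the microRNA miR399 removes PHO2, a ubiquitin-conjugating enzyme that limits phosphate transport. HHO2 belongs to the HRS1 and HHO family of GARP transcription factors, which link nitrate and phosphate signals. Starved plants replace membrane phospholipids by galactolipids and sulfolipids and secrete acid phosphatases.

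Estimated depths were 40700000 fragments for hho2phr1 and between 39600000 and 48100000 for the other 3 libraries. Genes used here as markers of shoot and of root were both detected, which does not settle which part of the plant was harvested. The 17 light-harvesting genes, shoot markers, summed to 19710 FPKM in hho2phr1, 14215 in phr1, 15998 in hho2-1 and 15413 in Col-0. Among root markers, the 12 root hair genes summed to 804 FPKM in hho2phr1, 875 in phr1, 859 in hho2-1 and 798 in Col-0, and the 9 endodermis genes to 283, 250, 233 and 291 FPKM in the same order of genotypes. The 18 seed storage and maturation genes summed to 106 FPKM in hho2phr1, 7.06 in phr1, 78.1 in hho2-1 and 22.2 in Col-0, and 5 of them were listed at 0 in phr1 and 1 in each of the other libraries. No shoot or root marker of these lists was listed at 0 in any library. The part of these shoot and seed differences in the results below was not tested, and in whole-tissue RNA fewer cells of a type and less RNA per cell cannot be told apart.

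The sequences shown first are promoters of genes that were low in the double mutant, with matches to the element that PHR1 is known to bind. Whether PHR1 binds these matches was not tested. The promoter windows are RefSeq sequence of the TAIR10.1 build from 250 bases before the annotated start of the gene to 50 bases after it, read along the gene's strand. Capitals mark the P1BS element, searched as GNATATNC, which reads the same on both strands. The 4 genes are SPX3, PAP14 and GDPD6, which hold 2 elements each, and PHT1;2, which holds 1; their windows lie at chr2:18606160-18606459 (plus strand), chr2:19266407-19266706 (minus strand), chr5:2576770-2577069 (minus strand) and chr5:17415448-17415747 (plus strand).
SPX3: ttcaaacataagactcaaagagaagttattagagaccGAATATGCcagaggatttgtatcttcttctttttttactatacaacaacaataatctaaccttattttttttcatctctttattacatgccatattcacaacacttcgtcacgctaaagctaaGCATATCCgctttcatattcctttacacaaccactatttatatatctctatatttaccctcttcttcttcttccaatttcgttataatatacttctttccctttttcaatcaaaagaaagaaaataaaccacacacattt
PAP14: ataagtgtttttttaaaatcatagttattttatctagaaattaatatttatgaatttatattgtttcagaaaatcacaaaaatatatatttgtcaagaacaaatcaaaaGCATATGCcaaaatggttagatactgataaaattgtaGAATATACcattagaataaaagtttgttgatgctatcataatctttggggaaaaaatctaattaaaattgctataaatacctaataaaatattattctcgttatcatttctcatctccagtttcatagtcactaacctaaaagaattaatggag
GDPD6: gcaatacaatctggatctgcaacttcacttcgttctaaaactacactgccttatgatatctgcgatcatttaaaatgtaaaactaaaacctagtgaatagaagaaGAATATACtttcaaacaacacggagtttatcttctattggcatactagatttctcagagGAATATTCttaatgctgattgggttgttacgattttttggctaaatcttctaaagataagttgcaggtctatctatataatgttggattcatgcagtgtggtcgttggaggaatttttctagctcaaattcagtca
PHT1;2: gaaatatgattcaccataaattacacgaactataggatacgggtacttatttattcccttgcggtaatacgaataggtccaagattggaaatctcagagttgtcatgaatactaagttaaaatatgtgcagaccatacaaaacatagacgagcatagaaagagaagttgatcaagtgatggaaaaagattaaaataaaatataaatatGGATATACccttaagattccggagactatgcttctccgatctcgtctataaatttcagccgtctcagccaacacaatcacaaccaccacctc

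The microRNA miR399b and the sites that face it in IPS1 and AT4 are shown because IPS1 was 2-fold lower and AT4 was not. IPS1 and AT4 are long RNAs that bind miR399 without being cut and so draw it away from PHO2. Capitals mark the seed, bases 2 to 8, in the microRNA, and the bases of each site that pair with miR399b. Each site pairs at 18 of 21 bases, with a loop of 3 unpaired bases near the middle. In both sites the loop can also be set at a neighbouring position with the same 18 pairs. The lone capital T in the middle of the IPS1 site, and the unlike marking of the IPS1 and AT4 middles, depend on that placing. The mature miR399b lies at chr1:23345387-23345407 (minus strand), the IPS1 site at chr3:3051224-3051247 (plus strand) and the AT4 site at chr5:895149-895172 (plus strand). The mature sequences of miR399a, miR399c-3p, miR399d, miR399e and miR399f have the same seed.
miR399b: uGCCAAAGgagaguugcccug
IPS1 site: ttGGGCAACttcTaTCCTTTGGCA
AT4 site: ttGGGCAACTtcgaTCCTTTGGCA

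The targeted genes were low in the double mutant, PHR1 strongly and the HHO2 locus in part. PHR1 (AT4G28610, chromosome 4, 14132856 to 14135259, TAIR10) had 6.50 FPKM in hho2phr1, 7.54 in phr1, 43.2 in hho2-1 and 37.7 in Col-0. The 2 libraries labelled as phr1 mutants were low and the 2 others high, and the log2 difference of hho2phr1 from Col-0 was -2.37. AT1G68670, a myb-like transcription factor gene on chromosome 1 (25782029 to 25784076) taken here as HHO2, had 51.8 FPKM in hho2phr1, 81.2 in phr1, 59.8 in hho2-1 and 90.7 in Col-0. The 2 libraries with the hho2 insertion were lower than the 2 without it, by -0.80 on the log2 scale for hho2phr1 over Col-0, and the authors' intervals of 40.8 to 62.9 FPKM and 71.9 to 110 FPKM did not overlap. Fragments on either side of an insertion still count towards a gene, so these levels are no measure of functional transcript.

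Most genes stood at the same level in both libraries. Differences are given as log2(FPKM + 1) in hho2phr1 minus that in Col-0, and a gene was counted as 2-fold higher or lower where this reached 1 or -1. By this rule 258 genes were higher in hho2phr1, 1.26% of those compared, and 132 were lower, 0.647%, or 390 genes and 1.91% in either direction. The median difference over all compared genes was -0.007, and the 5th and 95th percentiles were -0.40 and 0.45. In 163 of the higher genes (0.799% of all compared) and 61 of the lower genes (0.299%) the authors' intervals also stood apart. Every compared gene listed at 0 in 1 of the 2 libraries meets the size rule by construction. There were 48 such genes among those higher, listed at 0 in Col-0, and 54 among those lower, listed at 0 in hho2phr1, which leaves 210 higher and 78 lower genes with a value above 0 in both. Of the 66 microRNA genes compared, 15 were counted as higher and 18 as lower. Their precursors are so short that a few fragments decide the value.

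**Figure D1:**
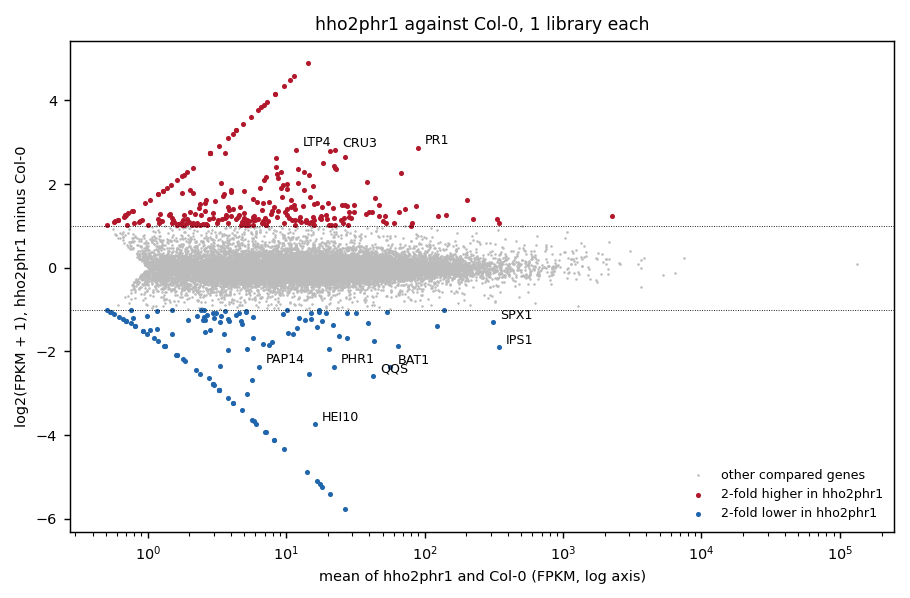
Each point is 1 of the 20400 compared genes, by the mean FPKM of hho2phr1 and Col-0 (log axis) and the difference of log2(FPKM + 1), with dotted lines at 1 and -1. The 258 higher genes (red) and 132 lower genes (blue) lie outside a band of genes under the limit, and the 2 straight edges are genes listed at 0 in 1 library.

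The lower side was led by single genes with unlike roles and by phosphate genes. AT2G46995, an uncharacterized gene, was listed at 0 in hho2phr1, with 28.6 FPKM in phr1, 12.6 in hho2-1 and 41.2 in Col-0. Its interval in Col-0 was wide, from 1.88 to 80.4 FPKM. In hho2phr1 the interval was 0 to 0, so any lower bound above 0 in Col-0 sets the intervals apart. Among genes detected in both libraries, HEI10, which encodes a meiotic crossover factor, had 1.38 FPKM in hho2phr1, 1.40 in phr1, 1.73 in hho2-1 and 30.9 in Col-0. It was low in all 3 mutants, and it shares its interval with MRD1 (AT1G53480), so the values of both depend on how the fragments were divided between them. MRD1 had 0.367 FPKM in hho2phr1, 0.0809 in phr1, 0.0474 in hho2-1 and 10.1 in Col-0, with overlapping intervals. BAT1 (AT4G31910), an acyltransferase gene of brassinosteroid metabolism, had 17.5 FPKM in hho2phr1, 12.9 in phr1, 81.3 in hho2-1 and 95.5 in Col-0. AT5G17340, annotated as a putative membrane lipoprotein, followed the same order of high and low libraries, with 3.57 FPKM in hho2phr1, 4.25 in phr1, 22.7 in hho2-1 and 25.7 in Col-0.

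Other lower genes had their low values in the libraries with the hho2 insertion. QQS, a gene that influences starch content, had 11.5 FPKM in hho2phr1, 40.4 in phr1, 12.6 in hho2-1 and 73.9 in Col-0, a log2 difference of -2.58. AT2G43240, a nucleotide-sugar transporter family gene, had 0.792 FPKM in hho2phr1, 9.92 in phr1, 0.745 in hho2-1 and 10.5 in Col-0. CPuORF35, which shares its interval with another gene, had 0.0351 FPKM in hho2phr1, 11 in phr1, 0.414 in hho2-1 and 5.47 in Col-0. All 3 genes thus had a low pair, hho2phr1 and hho2-1, and a high pair, phr1 and Col-0.

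In further lower genes every mutant lay below the wild type and the double mutant was lowest. SAG12, a cysteine protease gene used as a marker of leaf senescence, had 0.421 FPKM in hho2phr1, 1.04 in phr1, 1.04 in hho2-1 and 6.25 in Col-0. Other genes annotated as senescence-associated went the other way, 2-fold higher with intervals apart. SAG13 had 32.4 FPKM in hho2phr1 and 11.4 FPKM in Col-0, and SAG29 had 3.22 FPKM in hho2phr1 and 1 FPKM in Col-0. AIG2L had 0.968 FPKM in hho2phr1, 2.82 in phr1, 4.77 in hho2-1 and 6.65 in Col-0, and the noncoding RNA gene AT1G21529 had 1.56, 2.57, 6.78 and 8.84 FPKM in the same order. AT1G16515 was listed at 0 in hho2phr1, against 2.67 FPKM in Col-0, and stood at 0.722 in phr1 and 0.952 in hho2-1. Its interval was 0 to 0 in hho2phr1 and 0.382 to 4.96 FPKM in Col-0. All the genotypes are compared with the same Col-0 library, so a high or low value in that library enters each of these comparisons.

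**Figure D2:**
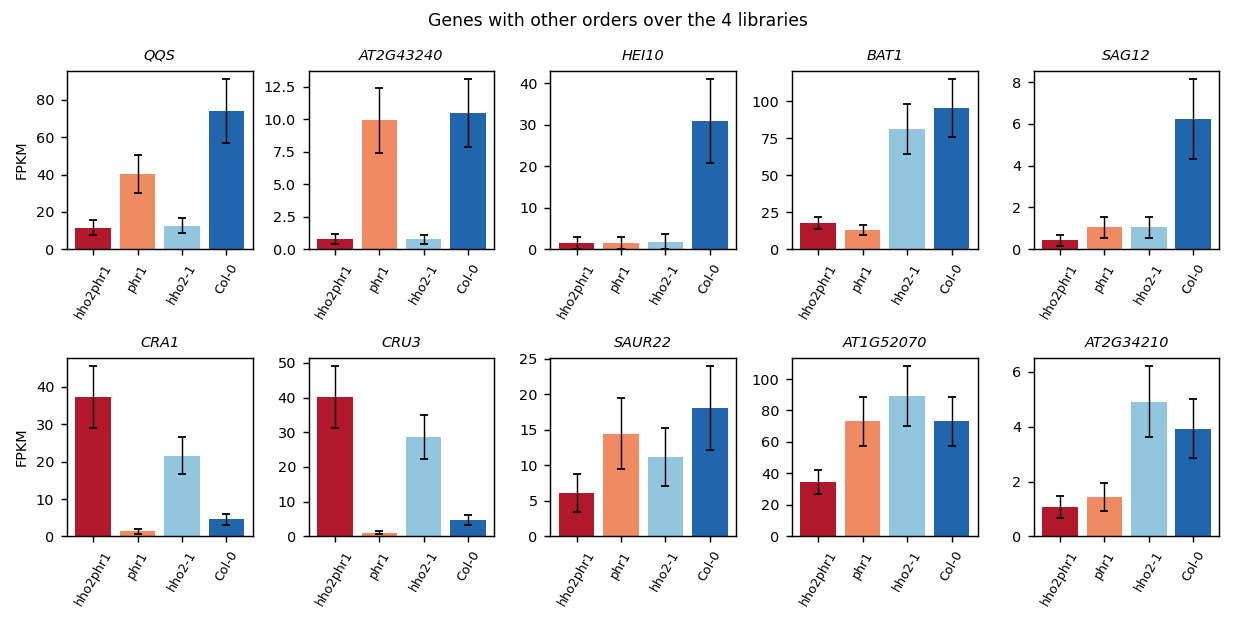
Bars are FPKM in hho2phr1, phr1, hho2-1 and Col-0, each 1 library, with the authors' 95% intervals, for 10 genes. QQS and AT2G43240 are low where the hho2 insertion is present, BAT1 and AT2G34210 where phr1 is, HEI10 and SAG12 in every mutant, and CRA1 and CRU3 are high in hho2phr1 and hho2-1.

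Of 20 compared phosphate signalling genes, 14 were below 0, 8 were 2-fold lower, beside 0.647% of all compared genes, and none was 2-fold higher. The 8 include PHR1, which carries an insertion, and 3 microRNA genes that meet the size rule only because they were listed at 0, and 4 of the 8, PHR1 among them, had intervals apart. The median difference of the list was -0.38, or -0.22 without those 3 microRNA genes, beside -0.007 over all compared genes. SPX3 and SPX1, which encode phosphate sensor proteins that restrain PHR1, were among them. SPX3 had 27.1 FPKM in hho2phr1, 25.5 in phr1, 87.0 in hho2-1 and 102 in Col-0, which is -1.87 on the log2 scale. SPX1 had 179 FPKM in hho2phr1, 180 in phr1, 456 in hho2-1 and 444 in Col-0, a difference of -1.30. In both genes the double mutant stood beside phr1 and far from the 2 libraries with an intact PHR1.

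IPS1 differed from the SPX genes in that its 4 libraries were graded. It had 145 FPKM in hho2phr1, 242 in phr1, 384 in hho2-1 and 544 in Col-0, a log2 difference of -1.90. The interval of 114 to 177 FPKM in hho2phr1 lay below that of 432 to 657 FPKM in Col-0. AT4, the related RNA, had 1560 FPKM in hho2phr1, 2120 in phr1, 1514 in hho2-1 and 1959 in Col-0. Its intervals overlapped, and its difference was -0.33.

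Of the miR399 precursors, MIR399B, MIR399D and MIR399F were listed at 0 in hho2phr1. In Col-0 they had 6.54, 35.1 and 11.3 FPKM. MIR399C had 7.75 FPKM in hho2phr1 and 32.8 FPKM in Col-0. The authors' lower bound was 0 for all 4 precursors in Col-0, so their presence there rests on a few fragments. PHO2, the target of miR399, had 102 FPKM in hho2phr1, 82.2 in phr1, 77.5 in hho2-1 and 77.1 in Col-0, a difference of 0.39 with overlapping intervals. SPX4 and PHL1, the closest relative of PHR1, differed by 0.12 and 0.13.

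**Figure D3:**
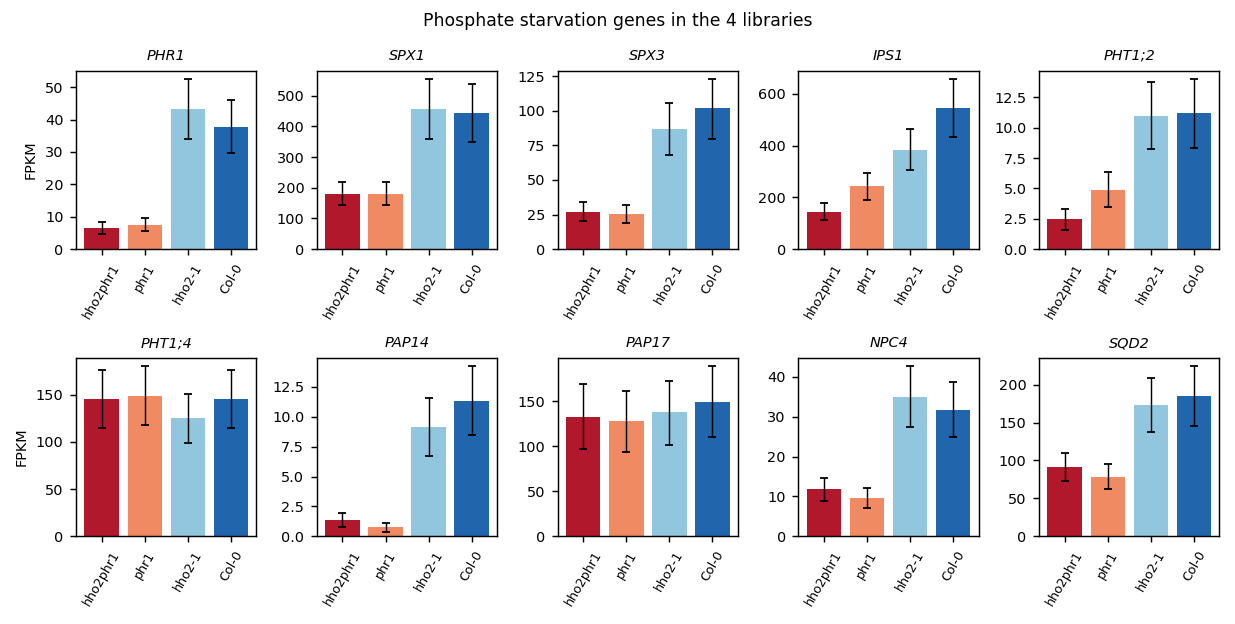
Bars are FPKM in hho2phr1, phr1, hho2-1 and Col-0, each 1 library, with the authors' 95% intervals, for 10 phosphate genes. SPX1, SPX3, PHT1;2, PAP14, NPC4 and SQD2 are low in hho2phr1 and phr1, IPS1 is graded, and PHT1;4 and PAP17 stand at similar levels in all 4.

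Among phosphate transport genes, 6 of 21 compared members were 2-fold lower, beside 0.647% of all compared genes, and none was 2-fold higher. The median difference was -0.10. The 6 lower members had 1.34 to 26.9 FPKM in Col-0, and with a pseudocount of 5 only 1 of them met the size rule. PHT1;2, a plasma membrane phosphate transporter with near-identical paralogs, had 2.44 FPKM in hho2phr1, 4.90 in phr1, 11 in hho2-1 and 11.2 in Col-0. Its log2 difference was -1.82, and the double mutant was the lowest of the 4 libraries. PHT1;9 had 0.840 FPKM in hho2phr1, 1.42 in phr1, 3.15 in hho2-1 and 4.31 in Col-0, and PHT1;8 had 1.44, 2.33, 3.78 and 4.54 FPKM in the same order. Both encode phosphate transporters of the root, and both were graded across the libraries in the same way.

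PHO1;H1, a relative of the phosphate exporter PHO1, had 12.1 FPKM in hho2phr1, 15.8 in phr1, 32.4 in hho2-1 and 26.9 in Col-0. G3Pp3, of a family of glycerol-3-phosphate permeases, had 1.29 FPKM in hho2phr1, 2.13 in phr1, 2.74 in hho2-1 and 4.07 in Col-0. PHT1;7 had 0.170 FPKM in hho2phr1 and 1.34 FPKM in Col-0, at the edge of the size rule. PHT1;4, the most abundant PHT1 gene compared, had 146 FPKM in hho2phr1, 149 in phr1, 125 in hho2-1 and 145 in Col-0. PHT1;1 differed by -0.53, PHO1 by -0.19 and PHT1;5 by 0.68, each with overlapping intervals.

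Purple acid phosphatases, which free phosphate from organic compounds, were low in part. Of the 18 phosphatase and ribonuclease genes compared, 15 were below 0, 3 were 2-fold lower, beside 0.647% of all compared genes, and none was 2-fold higher, with a median of -0.39. With a pseudocount of 5, 1 of the 3 met the size rule. PAP14 had 1.39 FPKM in hho2phr1, 0.746 in phr1, 9.16 in hho2-1 and 11.3 in Col-0, a log2 difference of -2.37. PAP5 had 0.148 FPKM in hho2phr1, 0.127 in phr1, 2.14 in hho2-1 and 2.17 in Col-0, and PAP23 had 0.754, 0.323, 2.14 and 3.16 FPKM in the same order. In these 3 genes hho2phr1 was above phr1, at low values, and both were far below the libraries with an intact PHR1. For PAP14 the intervals of hho2phr1 and phr1 overlapped, at 0.805 to 1.98 and 0.367 to 1.12 FPKM.

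Intervals stood apart, at any size, in 7 lower genes and 1 higher gene of this list. Over all compared genes they stood apart in 0.765% on the lower side and 1.62% on the higher side. PECP1, a phosphatase of phosphoethanolamine and phosphocholine, had 149 FPKM in hho2phr1, 130 in phr1, 287 in hho2-1 and 279 in Col-0. PS2 (AT1G73010), its close relative, had 237 FPKM in hho2phr1, 219 in phr1, 385 in hho2-1 and 378 in Col-0. The higher gene was RNS1, a secreted ribonuclease of phosphate-starved and wounded plants, with 46.6 FPKM in hho2phr1, 25.1 in phr1, 33.8 in hho2-1 and 27.2 in Col-0. The acid phosphatases PAP17 and PAP26 differed by -0.16 and 0.06.

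Genes of membrane lipid remodelling were below 0 in 18 of 19 compared members, with a median of -0.36. Of these, 3 were 2-fold lower (1 with a pseudocount of 5), beside 0.647% of all compared genes. Intervals stood apart, at any size, in 7 lower members, beside 0.765% of all compared genes. NPC4, a phospholipase C that degrades phospholipids, had 11.8 FPKM in hho2phr1, 9.59 in phr1, 35 in hho2-1 and 31.7 in Col-0. SQD2, the last enzyme of sulfolipid synthesis, had 91.3 FPKM in hho2phr1, 78.5 in phr1, 173 in hho2-1 and 185 in Col-0. GDPD6, of the glycerophosphodiester phosphodiesterases, had 0.0704 FPKM in hho2phr1, 0.0725 in phr1, 1.81 in hho2-1 and 2.01 in Col-0. The galactolipid synthase gene MGD3 fell just short of the size rule, with 37.1 FPKM in hho2phr1 and 74.8 FPKM in Col-0. SQD1 and DGD1, which make sulfolipid and galactolipid in fed plants too, differed by -0.06 and -0.04.

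The P1BS element stood in 26 of 121 promoters of 2-fold lower genes, or 21.5%. It stood in 16 of 241 promoters of 2-fold higher genes, or 6.64%, and in 1300 of all 20312 promoters, or 6.4%. Among compared members of the 4 phosphate lists, it stood in 12 of the 20 that were 2-fold lower (60%) and in 22 of the 58 others (37.9%). SPX3, PAP14, GDPD6 and PHT1;2, whose promoters are printed above, held it, while IPS1 and SQD2 held none in this window. For microRNA genes the window starts from the annotated precursor, which is not a start of transcription. A match is a run of letters and not a binding site.

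Nitrate genes and the HHO relatives gave no 2-fold member. Of 20 nitrate genes, 16 were above 0, beside 48.7% of all compared genes, with a median of 0.25. NIA1, a nitrate reductase, had 108 FPKM in hho2phr1, 86.7 in phr1, 78.2 in hho2-1 and 66.4 in Col-0. It was the only one of them with intervals apart, beside 1.62% of all compared genes on the higher side. The nitrate exporter gene NRT1.5 was on the other side, with 281 FPKM in hho2phr1, 367 in phr1, 304 in hho2-1 and 417 in Col-0. AT1G25550, a myb-like gene of the same family as HHO2, had 149 FPKM in hho2phr1, 107 in phr1, 186 in hho2-1 and 111 in Col-0. The medians were 0.09 for 14 iron genes, -0.18 for 14 sulfur genes, 0.10 for 7 anthocyanin genes, 0.09 for 5 metallothionein genes and 0.06 for 7 reference genes, with no 2-fold member in any of these lists.

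**Figure D4:**
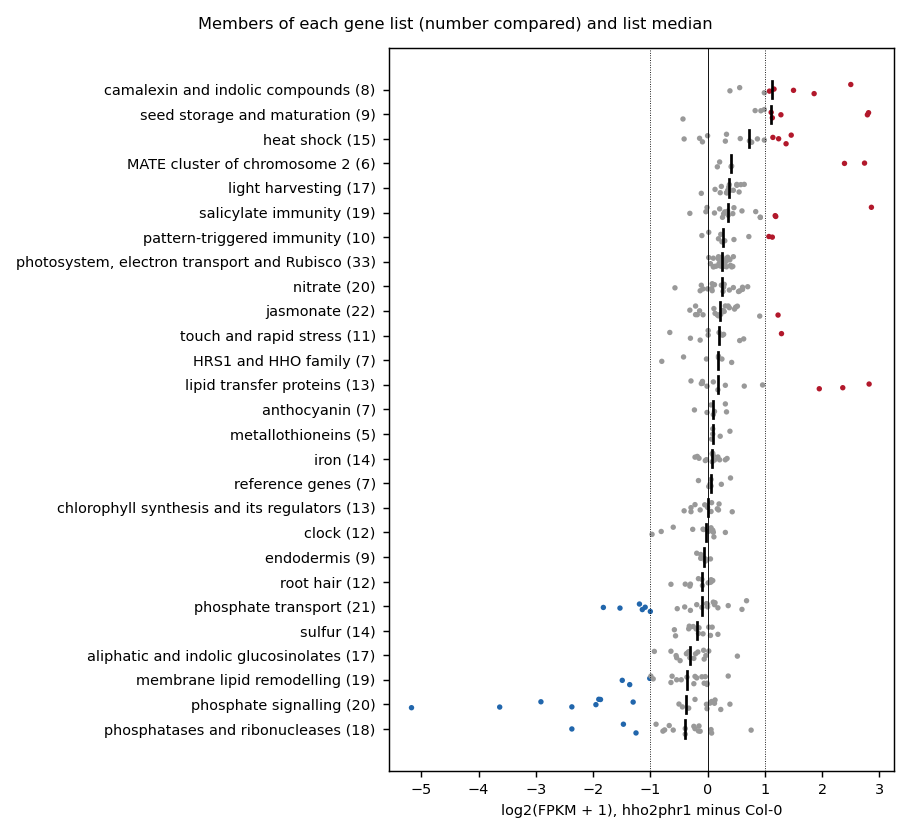
Each point is 1 compared member of a gene list by its difference of log2(FPKM + 1), hho2phr1 minus Col-0, with members that reached 1 in red and -1 in blue, and the bar is the list median. Of the lists plotted, the 4 phosphate lists hold every 2-fold lower member, and camalexin, seed and heat shock genes have the highest medians. A list of 6 single genes from earlier results of these data, 5 of them 2-fold lower, is not plotted.

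Among higher genes with intervals apart, PR1 and LTP4 had the largest differences, followed by the seed storage genes CRU3 and CRA1. PR1, the standard marker of salicylate responses, had 157 FPKM in hho2phr1, 111 in phr1, 10.5 in hho2-1 and 20.8 in Col-0, the highest log2 difference among the named genes, 2.86. The libraries with the phr1 insertion were high and the others low, and the interval of 124 to 190 FPKM in hho2phr1 lay above that of 15.2 to 26.5 FPKM in Col-0. Among 19 compared genes of salicylate immunity, 16 were above 0 and 3 were 2-fold higher, beside 1.26% of all compared genes, with a median of 0.36. With a pseudocount of 5 only PR1 met the size rule.

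The other 2-fold higher members were transcription factor genes of the WRKY family. WRKY38 had 5.45 FPKM in hho2phr1, 3.40 in phr1, 2 in hho2-1 and 1.82 in Col-0. WRKY62 had 2.48 FPKM in hho2phr1, 3.90 in phr1, 0.375 in hho2-1 and 0.539 in Col-0. ICS1, the salicylate synthesis gene, had 19.6 FPKM in hho2phr1 and 15.1 FPKM in Col-0, and PR5, another pathogenesis-related gene, had 6.84 FPKM in hho2phr1 and 8.74 FPKM in Col-0, both with overlapping intervals. PRB1, annotated as basic pathogenesis-related protein 1 and outside this list, was 2-fold lower with intervals apart, a difference of -1.49. It had 1.01 FPKM in hho2phr1, 3.07 in phr1, 4.3 in hho2-1 and 4.67 in Col-0.

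Camalexin genes had the highest median of the lists, 1.12, with 5 of 8 compared members 2-fold higher and all 8 above 0, beside 1.26% and 48.7% of all compared genes. Camalexin is the main indolic antimicrobial compound of Arabidopsis. CYP71A13, which makes its nitrile precursor, had 21.7 FPKM in hho2phr1, 32.9 in phr1, 7.71 in hho2-1 and 5.27 in Col-0, a difference of 1.86. CYP82C2, which acts on a related indolic compound, had 32.1 FPKM in hho2phr1, 35.4 in phr1, 4.34 in hho2-1 and 4.84 in Col-0, a difference of 2.5. CYP71A12 had 81.7 FPKM in hho2phr1, 82.0 in phr1, 38.6 in hho2-1 and 38.0 in Col-0, and fragments may be split between it and the similar CYP71A13.

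GSTF6, a glutathione transferase, had 462 FPKM in hho2phr1, 475 in phr1, 220 in hho2-1 and 206 in Col-0. AT1G26380, an oxidase gene of the berberine bridge family, had 37.8 FPKM in hho2phr1, 31.1 in phr1, 16.5 in hho2-1 and 12.7 in Col-0. In all 5 of these genes the double mutant and phr1 were high and the other 2 libraries low. CYP71B15, the last enzyme of the pathway, fell just short of the size rule with 32.4 FPKM in hho2phr1 and 15.8 FPKM in Col-0.

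Lipid transfer protein genes had 3 of 13 compared members 2-fold higher, beside 1.26% of all compared genes, with a list median of 0.18. LTP4 had 21.3 FPKM in hho2phr1, 9.98 in phr1, 1.15 in hho2-1 and 2.15 in Col-0, a difference of 2.82. LTP3, its neighbour on chromosome 5, had 25.5 FPKM in hho2phr1, 11.7 in phr1, 4.15 in hho2-1 and 5.85 in Col-0. AT4G12490 had 38.8 FPKM in hho2phr1, 21.8 in phr1, 3.82 in hho2-1 and 6.76 in Col-0. These 3 were highest in the double mutant, next highest in phr1 and low in the other libraries. AZI1, a far more abundant gene of the same family, had 1192 FPKM in hho2phr1 and 1110 FPKM in Col-0.

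**Figure D5:**
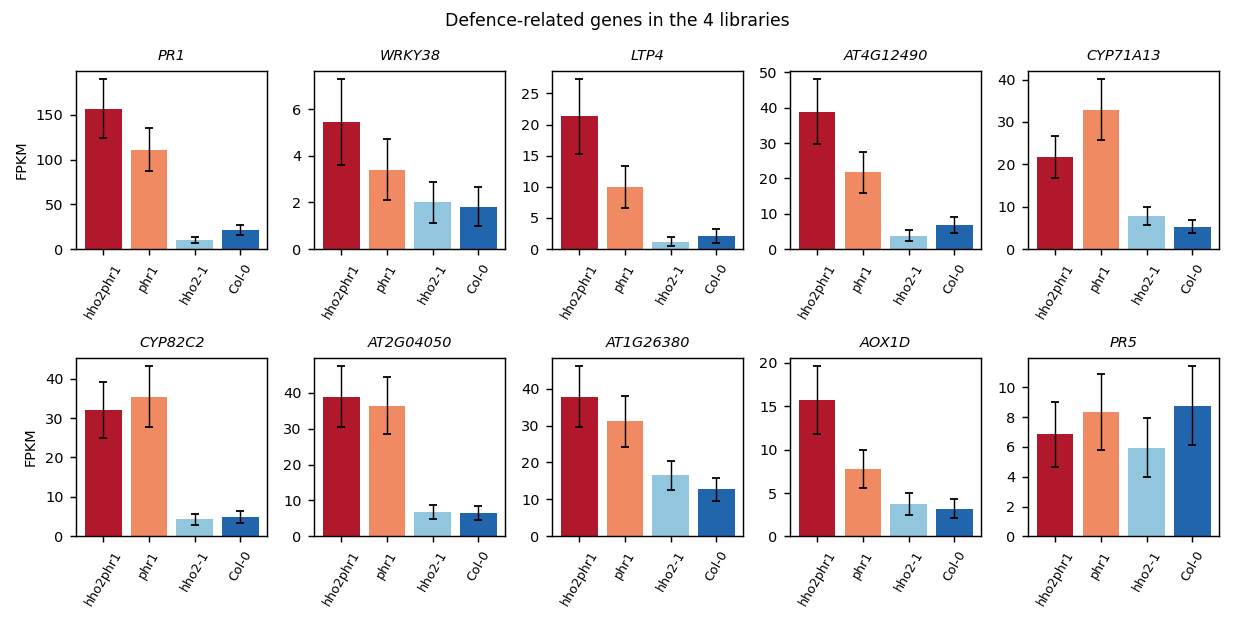
Bars are FPKM in hho2phr1, phr1, hho2-1 and Col-0, each 1 library, with the authors' 95% intervals, for 10 defence-related genes. All but PR5 are higher in hho2phr1 and phr1 than in hho2-1 and Col-0. Of these, CYP71A13 and CYP82C2 are highest in phr1 and the rest in hho2phr1. The intervals of hho2phr1 and phr1 stand apart only for LTP4, AT4G12490 and AOX1D.

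Of 6 compared transporters of the MATE efflux cluster on chromosome 2, 2 were 2-fold higher, beside 1.26% of all compared genes. AT2G04050 had 38.8 FPKM in hho2phr1, 36.3 in phr1, 6.87 in hho2-1 and 6.61 in Col-0, and AT2G04070 had 7.03, 3.65, 0.266 and 0.205 FPKM in the same order. The 4 others of the cluster were between 0.17 and 0.42 higher on the log2 scale. Pattern-triggered immunity genes had a median of 0.27 with 2 of 10 members 2-fold higher, or 1 with a pseudocount of 5, against the same 1.26%. These were NHL10, with 111 FPKM in hho2phr1 and 52.5 FPKM in Col-0, and the peroxidase gene PER4, with 16.4 FPKM in hho2phr1 and 6.93 FPKM in Col-0.

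Among 22 jasmonate genes 1 was 2-fold higher, beside 1.26% of all compared genes, with a median of 0.23. It was VSP2, a vegetative storage protein gene induced by jasmonate, with 66.4 FPKM in hho2phr1, 36.2 in phr1, 24.3 in hho2-1 and 27.6 in Col-0. The touch and rapid stress list also had 1 of 11, against the same 1.26%, the zinc finger gene ZAT12, with 54.0 FPKM in hho2phr1, 36.4 in phr1, 22.5 in hho2-1 and 21.5 in Col-0, and a median of 0.20. ARD3, which encodes an acireductone dioxygenase, had 8.33 FPKM in hho2phr1, 9.78 in phr1, 1.15 in hho2-1 and 1.60 in Col-0, and was high in both libraries with the phr1 insertion. AT2G41730, which encodes a calcium-binding site protein, had 112 FPKM in hho2phr1, 85.3 in phr1, 18.2 in hho2-1 and 22.4 in Col-0. The others among the 15 largest higher differences with intervals apart were unnamed genes or pseudogenes, AT1G21525, AT1G06137, AT4G21730, AT5G24640, AT4G12735 and AT5G13210, with 12.3 to 38.2 FPKM in hho2phr1 and 1.98 to 6.26 FPKM in Col-0.

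The W-box, the short element that WRKY factors are known to bind, was searched as TTGAC on both strands of the same windows. It stood in 69.3% of the 241 promoters of 2-fold higher genes, 46.3% of the 121 promoters of 2-fold lower genes and 51.3% of all 20312 promoters. The promoter of CYP82C2 (chr4:15462100-15462399, plus strand) held 3 and is shown as an example from the camalexin genes, with the W-boxes in capitals as TTGAC or, on the other strand, GTCAA.
CYP82C2: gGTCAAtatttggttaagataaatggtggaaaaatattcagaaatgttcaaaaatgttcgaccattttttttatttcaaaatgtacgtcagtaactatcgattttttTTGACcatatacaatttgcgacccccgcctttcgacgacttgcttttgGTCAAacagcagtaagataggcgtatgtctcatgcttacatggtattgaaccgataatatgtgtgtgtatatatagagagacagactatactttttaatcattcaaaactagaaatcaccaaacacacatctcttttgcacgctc

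Seed genes had a pattern of their own. Of 18 listed seed storage and maturation genes, 9 reached 1 FPKM in either library, and 5 of those were 2-fold higher, beside 1.26% of all compared genes, with a median of 1.11. With a pseudocount of 5, 2 of them met the size rule. CRU3, a cruciferin storage protein gene, had 40.1 FPKM in hho2phr1, 1.02 in phr1, 28.7 in hho2-1 and 4.84 in Col-0. CRA1, another cruciferin gene, had 37.2 FPKM in hho2phr1, 1.31 in phr1, 21.6 in hho2-1 and 4.53 in Col-0. The libraries with the hho2 insertion were high, Col-0 was intermediate and phr1 was lowest. The seed peroxiredoxin gene PER1, the oleosin gene OLEO2 and the albumin gene SESA1 had 3.55, 7.02 and 2.46 FPKM in hho2phr1, against 0.878, 2.71 and 0.584 FPKM in Col-0.

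Heat shock genes had a median of 0.73, with 4 of 15 compared members 2-fold higher, beside 1.26% of all compared genes, and none with a pseudocount of 5. HSP17.6A, a small heat shock protein gene, had 5.98 FPKM in hho2phr1, 2.96 in phr1, 4.90 in hho2-1 and 1.71 in Col-0. HSP23.5 had 8.63 FPKM in hho2phr1, 10.6 in phr1, 4.82 in hho2-1 and 3.07 in Col-0. BIP3, a chaperone gene of the endoplasmic reticulum, had 4.8 FPKM in hho2phr1, 2.63 in phr1, 3.79 in hho2-1 and 1.64 in Col-0. Col-0 was the lowest of the 4 libraries for all 3 genes. HSP17.4, the fourth, had overlapping intervals.

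Genes of the photosystems and light harvesting lay slightly above 0 with 1 exception and no 2-fold member. All 33 genes of the photosystems, electron transport and Rubisco were above 0, by 0.02 to 0.45, with a median of 0.26, against 48.7% of all compared genes above 0. Of 17 light-harvesting genes 16 were above 0, with a median of 0.37, and LHCB7 differed by -0.11. LHCB1.1 was the only gene of both lists with intervals apart, at 294 FPKM in hho2phr1, 106 in phr1, 213 in hho2-1 and 188 in Col-0, and its reads may be divided with near-identical paralogs. Over all compared genes, intervals stood apart on the higher side in 1.62%. The 13 genes of chlorophyll synthesis had a median of 0.00, with 6 below 0.

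Glucosinolate genes lay on the lower side without a 2-fold member. Of 17 compared, 15 were below 0, beside 10462 of all 20400 compared genes, with a median of -0.31. CYP79F1, which starts the synthesis of aliphatic glucosinolates from methionine, had 17.1 FPKM in hho2phr1, 19.3 in phr1, 35.9 in hho2-1 and 33.5 in Col-0. MAM3, an enzyme of methionine chain elongation, had 74.3 FPKM in hho2phr1, 112 in phr1, 129 in hho2-1 and 117 in Col-0. The intervals of hho2phr1 and Col-0 stood apart for these 2 genes, beside 0.765% of all compared genes on the lower side. The 12 clock genes had a median of -0.02, while the morning genes CCA1 and LHY had 5.22 and 3.12 FPKM in hho2phr1 against 11.2 and 6.21 FPKM in Col-0. Root hair and endodermis genes had medians of -0.10 and -0.06.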

How the data were processed

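Poly(A)+ RNA of 4 libraries, 1 per genotype, was sequenced from ScriptSeq v2 libraries, per the labels' protocols. The submitters' processing notes name TopHat2 2.0.11, Cuffdiff 2.2.1 and the TAIR10 build. The deposited values are FPKM with a 95% interval and a status, per the file headers. The annotation release and scaling are not given in the sources used here. Depth was estimated from genes with 1 fragment.

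Values were looked up by locus, and 32810 genes matched the RefSeq annotation of TAIR10.1. Genes with at least 1 FPKM in hho2phr1 or Col-0 were compared as log2(FPKM + 1), with a difference of 1 as the limit. The pseudocount shrinks differences of low genes. With 1 library per genotype no test was run. The 15 highest and 15 lowest genes with intervals apart were named. So were up to 6 of the 2-fold members of each list by size, both targeted genes and defining members. Intervals apart were not required of list members. The members and the 28 lists were chosen with earlier results of these data known. Python 3.11.15 with pandas 2.3.3 was used. Alternatives were the pseudocount, the filter, scaling, genes left out and the call rule.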

Additional observations from a re-analysis of the deposited data

How the results depend on the processing

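The counts of 258 higher and 132 lower genes moved with the pseudocount, to 426 and 215 at 0.1 and to 97 and 56 at 5. They became 163 and 61 where the authors' intervals also had to stand apart. The lower count became 84 with an FPKM of at least 5 and 75 without overlapping, short, organellar, unmatched and FAIL genes. The 224 2-fold genes with intervals apart became 85 at a pseudocount of 5. A larger pseudocount shrinks the differences of low genes by construction, and at 5, 21 of the 66 named 2-fold genes no longer met the size rule. The 3 scalings left between 240 and 259 higher and between 132 and 138 lower genes, and moved the median of all genes to -0.035 at most. Under the pseudocounts and scalings no list median above 0.1 in size and none of those 66 genes changed sign. A pseudocount cannot change the sign of a gene's difference, and the largest scaling was -0.031 on the log2 scale. For those 66 genes the unchanged sign was therefore fixed in advance and is no check. Of the 28 list medians, 3 moved by more than 0.1 at a pseudocount of 0.1, 7 did at 5, and none did under a scaling. The share of 2-fold lower genes with P1BS was 20.7% in the 250 bases before the start alone, against 21.5% in the full window. No paired analysis was possible because each genotype has 1 library, and for the same reason no library could be left out.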

Other observations

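The families and runs described here were picked from annotation names and chromosome order after their values had been seen. Of 60 compared SAUR-like auxin-responsive genes, a family of small proteins that promote cell expansion, 45 were below 0, 6 were 2-fold lower and 1 was 2-fold higher, beside 0.647% and 1.26% of all compared genes, with a median of -0.35 beside -0.007 over all compared genes. SAUR22 had 6.06 FPKM in hho2phr1, 14.4 in phr1, 11.2 in hho2-1 and 18.0 in Col-0. SAUR24 had 8.66 FPKM in hho2phr1, 18.5 in phr1, 15.1 in hho2-1 and 24.7 in Col-0. SAUR19 had 2.34 FPKM in hho2phr1, 7.72 in phr1, 5.69 in hho2-1 and 7.03 in Col-0. AT4G38860 had 7.17 FPKM in hho2phr1, 15.8 in phr1, 13.6 in hho2-1 and 17.7 in Col-0. The double mutant was the lowest library in all 4 genes, and both single mutants lay between it and Col-0 except in SAUR19, where phr1 lay above Col-0. The SAUR19 to SAUR24 genes are similar in sequence, so fragments may be divided among them. The member on the other side was AT2G37030, with 6.03 FPKM in hho2phr1, 4.14 in phr1, 4.16 in hho2-1 and 1.58 in Col-0. IAA6, an auxin response repressor gene, had 1.02 FPKM in hho2phr1, 2.02 in phr1, 2.31 in hho2-1 and 3.53 in Col-0.

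Of 27 jacalin lectin genes compared, 3 were 2-fold lower, beside 0.647% of all compared genes, and the family median was -0.10. The 3 are AT1G52050, AT1G52060 and AT1G52070, neighbours on chromosome 1. AT1G52070 had 34.5 FPKM in hho2phr1, 73.1 in phr1, 89.1 in hho2-1 and 73.0 in Col-0. AT1G52060 had 10.9 FPKM in hho2phr1, 24.8 in phr1, 30.2 in hho2-1 and 23.7 in Col-0. Both were low in the double mutant alone. A run on chromosome 2 held AT2G34186, MIR399D, MIR399F, AT2G34210 and AT2G34224. Only AT2G34210 had intervals apart. The others were listed at 0 in hho2phr1, with a lower bound of 0 in Col-0, and so met the size rule by construction. AT2G34210, a gene for an Spt5 transcription elongation factor, had 1.08 FPKM in hho2phr1, 1.44 in phr1, 4.91 in hho2-1 and 3.93 in Col-0. On the higher side, AT1G26380, AT1G26390 and AT1G26410 of the berberine bridge family are neighbours on chromosome 1. They are the 3 members 2-fold higher of 19 compared, beside 1.26% of all compared genes, and the family median was 0.17. AT1G26390 had 67.5 FPKM in hho2phr1, 50.1 in phr1, 17.5 in hho2-1 and 20.6 in Col-0.

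Of 6 compared alternative oxidase and NAD(P)H dehydrogenase genes, which pass electrons without pumping protons, 2 were 2-fold higher, 4 were above 0 and 2 below it, beside 1.26% of all compared genes on the higher side. AOX1D, an alternative oxidase, had 15.7 FPKM in hho2phr1, 7.81 in phr1, 3.69 in hho2-1 and 3.21 in Col-0. NDB4, an external NAD(P)H dehydrogenase, had 2.11 FPKM in hho2phr1, 1.90 in phr1, 0.374 in hho2-1 and 0.427 in Col-0. AT2G21640, annotated as a marker of oxidative stress, had 16.8 FPKM in hho2phr1, 14.7 in phr1, 4.02 in hho2-1 and 3.45 in Col-0. Of 50 glutathione transferase genes compared, 6 were 2-fold higher and none was lower, against the same 1.26%. None of 315 ribosomal protein genes reached the size rule, and their median was -0.06.

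The annotated gene AT2G01021, near the start of chromosome 2, had 3191 FPKM in hho2phr1, 1273 in phr1, 891 in hho2-1 and 1346 in Col-0. Its annotated exon length is 102 bases, and for so short a gene FPKM is a weak measure of level. Which RNA its fragments came from was not tested. The plastid gene PSBC, 1 of 2 plastid genes that reached 1 FPKM, had 5.57 FPKM in hho2phr1, 1.47 in phr1, 0.767 in hho2-1 and 1.76 in Col-0. Both were highest in hho2phr1. Organellar transcripts are mostly not polyadenylated, so their low level in poly(A)+ libraries is no measure of their amount.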
